A study of Mus musculus with 8 samples.

Results

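A set of 10 genes that build or control cartilage matrix without being collagens were followed in mouse long bone 30 days after doxorubicin. They were found by symbol in the deposited gene table, which held all 10 of them among 55421 genes, and 9 of the 10 passed the filter on low counts that left 17035 genes for testing. The genes were picked by name with earlier results of the doxorubicin against vehicle comparison known, so their differences between the groups are a description and carry no test. The bones came from 8 wild-type male C57BL/6 mice, 15 weeks old when assigned to their group. Saline was injected intraperitoneally in 4 of them as vehicle, and doxorubicin (DoxoR), a DNA-damaging chemotherapy drug with which the series models senescence, at 10 mg/kg in the other 4. Tibiae and femurs of 1 mouse, cleaned of soft tissue, with both ends cut off and the marrow spun out, gave 1 polyadenylated RNA library, so replicates are separate animals. The libraries held between 23699525 and 35747083 counts. Levels below are CPM, the counts of a gene scaled to a common library total, with the TMM correction for differences in library composition, unless said otherwise.

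Cartilage owes its stiffness in compression to aggrecan, a proteoglycan whose chondroitin sulfate chains hold water, and which the link protein HAPLN1 ties to long hyaluronan strands. Smaller adaptor proteins, among them COMP and the matrilins, connect collagen fibrils with each other and with the proteoglycans, and the transcription factor SOX9 turns on many of these genes in chondrocytes. Several of the genes are not restricted to chondrocytes: COMP, CILP, chondroadherin and lubricin are also made in tendon, ligament and joint lining. In adult long bone cartilage lies in the joint surfaces and the growth plates, at the ends that were removed here.

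Markers of bone cells were present in every library, and so were those of muscle, tendon and marrow. All 8 osteoblast genes and all 6 osteocyte genes of the lists used here had counts in every library, and so did all 15 skeletal muscle, all 9 tendon and ligament, all 10 neutrophil and all 11 erythroid genes. Summed over the list, skeletal muscle genes ran from 5538 to 30900 CPM in vehicle and from 17523 to 44384 CPM in doxorubicin bones, with vehicle 3 lowest and doxorubicin 1 highest. The sum of the osteoblast genes ran from 4566 to 11596 CPM in vehicle and from 4499 to 16727 CPM in doxorubicin bones. For the erythroid genes it was 17859 to 35254 and 13964 to 30121 CPM, and for the neutrophil genes 13315 to 23585 and 10750 to 22350 CPM. Of the 17 listed chondrocyte genes other than collagens, 13 had counts in every library. The other 4 were Snorc, Ucma, Nkx3-2 and Foxa2, which were at 0 counts in vehicle 2. Ucma was at 0 in doxorubicin 1 as well. In bulk RNA, fewer cells of a type and less RNA per cell cannot be told apart.

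The 250 bases before the RefSeq start are shown for 4 of the genes, 3 that were highest in doxorubicin 3 (Acan, Matn3 and Chad) and 1 whose groups did not overlap (Cilp). They come from the RefSeq table of build GRCm38.p6, all on the plus strand, at chr7:79052976-79053225, chr12:8947679-8947928, chr11:94564797-94565046 and chr9:65264930-65265179. Capitals mark matches to the GC box GGGCGG or its reverse complement and to the TATA box TATAAA.
Acan: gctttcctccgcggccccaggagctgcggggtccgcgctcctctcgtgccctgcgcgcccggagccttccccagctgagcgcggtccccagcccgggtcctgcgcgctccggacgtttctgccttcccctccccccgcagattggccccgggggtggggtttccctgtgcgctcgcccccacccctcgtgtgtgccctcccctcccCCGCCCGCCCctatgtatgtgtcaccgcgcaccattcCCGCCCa
Matn3: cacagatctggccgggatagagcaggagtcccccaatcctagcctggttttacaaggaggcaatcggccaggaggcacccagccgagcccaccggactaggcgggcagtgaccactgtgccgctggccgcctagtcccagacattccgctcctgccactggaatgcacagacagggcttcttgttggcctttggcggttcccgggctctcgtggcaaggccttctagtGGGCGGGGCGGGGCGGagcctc
Chad: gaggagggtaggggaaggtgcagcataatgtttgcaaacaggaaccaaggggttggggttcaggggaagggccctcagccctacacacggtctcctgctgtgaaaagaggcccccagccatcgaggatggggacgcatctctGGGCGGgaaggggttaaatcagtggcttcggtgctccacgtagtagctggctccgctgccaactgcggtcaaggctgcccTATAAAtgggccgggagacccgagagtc
Cilp: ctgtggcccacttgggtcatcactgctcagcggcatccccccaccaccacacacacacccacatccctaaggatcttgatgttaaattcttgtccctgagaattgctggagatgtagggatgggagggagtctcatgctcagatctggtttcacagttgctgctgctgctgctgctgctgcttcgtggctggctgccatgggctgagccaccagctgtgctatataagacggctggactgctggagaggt
Of the 10 genes, 7 matched this table, all but Comp, Prg4 and Sox9. The GC box, searched on both strands with overlapping matches allowed, was present in 5 of the 7 (Acan, Chad, Cilp2, Matn1 and Matn3) and in 32.7% of all 32851 promoter windows. A TATAAA, on either strand, was in Chad alone of the 7, at bases −28 to −23 from its start, and in 12.4% of all windows. Only these exact letters were searched, so similar letters, such as the tatataag of the Cilp window, were neither marked nor counted. The SOX core letters ACAAT, on either strand, were in Hapln1 and Cilp2 and in 27.7% of all windows, and ACAAAG in 0 of the 7 and in 16.5% of all windows. The Acan window was the richest in G and C of the 4 printed, at 74.4%, against 65.2% in Matn3, 60.4% in Chad, 56.0% in Cilp and a median of 52.4% over all windows.

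Per length of exon, Comp and Chad stood at the top and the matrilins at the bottom. Dividing CPM by the kilobases of merged exons gave 6.08 ± 2.54 CPM per kilobase for Comp and 5.92 ± 3.54 for Chad in vehicle bones (SD, n = 4 each). Prg4 followed at 3.94 ± 2.43 and Cilp at 2.38 ± 0.388 CPM per kilobase (SD, n = 4 each). All 4 are genes also made outside cartilage, in tendon, ligament or joint lining. Hapln1 came next at 1.22 ± 0.808, Sox9 at 1.06 ± 0.402 and Cilp2 at 0.645 ± 0.268 CPM per kilobase (SD, n = 4 each). Acan, the gene of the major cartilage proteoglycan, ranked 8 in vehicle bones at 0.363 ± 0.282 CPM per kilobase, above Matn3 at 0.120 ± 0.110 and Matn1 at 0.0611 ± 0.0526 (SD, n = 4 each). Each pair of neighbours in this order had overlapping vehicle libraries. In doxorubicin bones the order was the same but for Comp and Chad, and Acan and Cilp2, which changed places, and all neighbours but Matn3 and Matn1 overlapped.

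**Figure D1:**
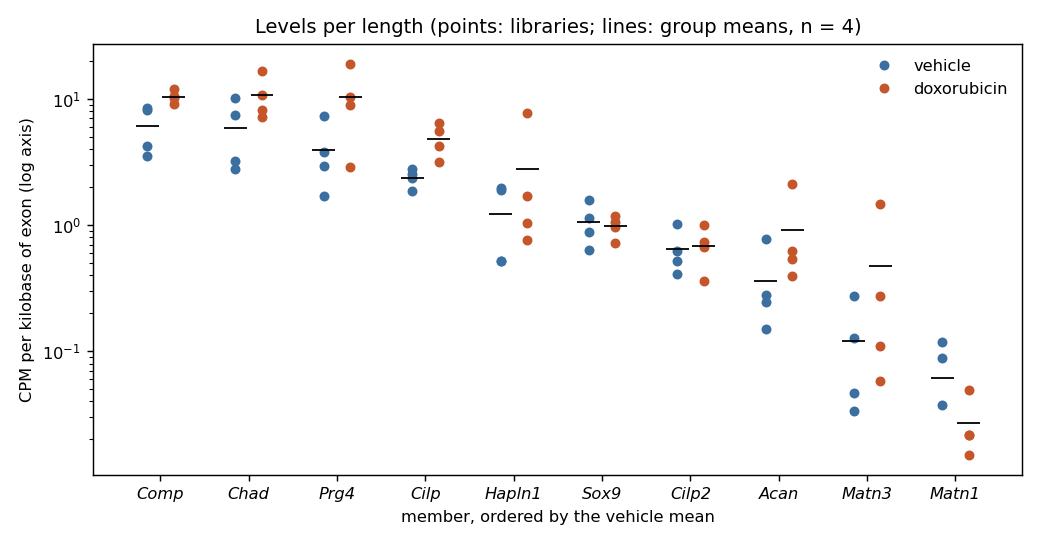
Levels in CPM per kilobase of exon on a log axis, 1 point per library and a line at each group mean (n = 4), for the 10 genes in order of their vehicle mean. Comp and Chad head the order near 6 CPM per kilobase in vehicle bones and Matn1 closes it; vehicle 2, at 0 counts of Matn1, has no point there.

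Aggrecan and its link protein were set apart by a single doxorubicin library. Acan (chr7:79053483-79115099, plus strand, 17 exons) was at 5.81, 1.12, 2.08 and 1.82 CPM in vehicle 1 to 4 and at 2.96, 4.06, 15.7 and 4.69 CPM in doxorubicin 1 to 4. Vehicle 1 lay above 3 of the 4 doxorubicin libraries, so the groups overlapped, and doxorubicin 3 was 5.31 times the median of the other libraries. The log2 difference, doxorubicin over vehicle, was 1.34 ± 0.62 (SE) with all libraries and 0.50 without doxorubicin 3, and 2.01 without vehicle 1.

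Hapln1 (chr13:89539796-89611652, plus strand), which locks aggrecan onto hyaluronan, had the same high library. It was at 11.5, 3.08, 11.1 and 3.04 CPM in vehicle 1 to 4 and at 4.48, 6.13, 45.5 and 9.99 CPM in doxorubicin 1 to 4. Apart from doxorubicin 3, at 7.43 times the median of the rest, no doxorubicin library exceeded the 2 higher vehicle libraries. The log2 difference of 1.20 ± 0.76 (SE) with all libraries was −0.09 without doxorubicin 3.

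Among the adaptors, the groups did not overlap for Comp and overlapped for the matrilins. Of all tested genes, 1.64% had groups that did not overlap with doxorubicin higher. Comp (chr8:70373558-70382066, plus strand, 19 exons) encodes a thrombospondin family protein of cartilage, tendon and ligament. It was at 24.1, 12.6, 10.5 and 24.9 CPM in vehicle 1 to 4 and at 31.2, 29.9, 27.1 and 35.6 CPM in doxorubicin 1 to 4. Every doxorubicin library lay above every vehicle library, although vehicle 1 and 4 were close to doxorubicin 3. The means were 18.0 ± 7.54 and 31.0 ± 3.54 CPM (SD, n = 4 each), and the log2 difference was 0.78 ± 0.27 (SE), between 0.55 without vehicle 3 and 0.95 without vehicle 1.

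Matn3 (chr12:8947929-8972028, plus strand), a matrilin of growth plate cartilage, was close to its detection limit in most libraries. It was at 0.824, 0.140, 0.381 and 0.101 CPM in vehicle 1 to 4, which rest on 22, 3, 15 and 3 counts, and at 0.174, 0.330, 4.41 and 0.825 CPM in doxorubicin 1 to 4, on 4, 11, 134 and 19 counts. Doxorubicin 3 stood 13.4 times above the median of the other libraries, whose groups overlapped. The log2 difference was 1.99 ± 0.99 (SE) with all libraries and 0.24 without doxorubicin 3.

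Matn1 (chr4:130944385-130955475, plus strand), another cartilage matrilin, had 22 counts in all and did not pass the filter. Its counts were 2, 0, 7 and 7 in vehicle 1 to 4 and 1, 1, 3 and 1 in doxorubicin 1 to 4. In vehicle 2 a count of 0 allows up to 0.140 CPM (3 counts, counting error only). A fit without the filter gave a log2 difference of −1.20, which rests on 16 counts against 6.

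Chad (chr11:94565047-94569127, plus strand, 4 exons) encodes chondroadherin, a leucine-rich repeat protein through which cells bind matrix. It was at 17.1, 4.71, 5.38 and 12.6 CPM in vehicle 1 to 4 and at 12.1, 17.9, 28.0 and 13.7 CPM in doxorubicin 1 to 4. Doxorubicin 3 was again highest, but at 2.22 times the median of the rest, and vehicle 2 and 3 were low. The log2 difference of 0.85 ± 0.43 (SE) became 0.53 without doxorubicin 3, its lowest value with 1 library left out.

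Of the surface and intermediate layer genes, Prg4 and Cilp2 followed another order of libraries. Prg4 (chr1:150449412-150466165, minus strand) encodes lubricin, the lubricant of joint surfaces and gliding tendons. It was at 16.3, 12.5, 7.24 and 31.4 CPM in vehicle 1 to 4 and at 81.5, 44.3, 12.3 and 38.0 CPM in doxorubicin 1 to 4. Here doxorubicin 3, the highest library for Acan, Hapln1, Matn3 and Chad, was below vehicle 1, 2 and 4. The log2 difference was 1.38 ± 0.56 (SE), from 0.89 without doxorubicin 1 to 1.84 without vehicle 4.

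Cilp (chr9:65265180-65280605, plus strand) encodes the cartilage intermediate layer protein, a matrix protein that binds and restrains growth factors of the TGF-beta family. It was at 10.0, 11.8, 7.87 and 10.8 CPM in vehicle 1 to 4 and at 27.4, 13.5, 17.9 and 23.5 CPM in doxorubicin 1 to 4. The groups did not overlap, and the vehicle libraries lay close together. Means were 10.1 ± 1.65 and 20.6 ± 6.15 CPM (SD, n = 4 each), with a log2 difference of 1.03 ± 0.22 (SE), the smallest SE of the 9 genes, and between 0.83 and 1.15 with any 1 library left out. Its paralog Cilp2 (chr8:69880369-69887687, minus strand) was at 2.70, 1.77, 2.23 and 4.42 CPM in vehicle and at 4.31, 3.15, 1.55 and 2.87 CPM in doxorubicin 1 to 4. Groups of Cilp2 overlapped, with doxorubicin 3 lowest and vehicle 4 highest of all, and its log2 difference of 0.08 ± 0.35 (SE) took either sign as single libraries were left out, and lay below 0 when scaled by library size alone or fitted with a muscle or marrow covariate.

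Sox9 (chr11:112782224-112787760, plus strand, 3 exons), the chondrocyte transcription factor, was not highest in doxorubicin 3, where Acan, Hapln1, Matn3 and Chad were. It was at 6.52, 4.67, 3.63 and 2.63 CPM in vehicle 1 to 4 and at 4.39, 4.84, 4.02 and 3.00 CPM in doxorubicin 1 to 4. The doxorubicin range lay inside the vehicle range, and doxorubicin 3 was at 0.915 times the median of the other libraries. The log2 difference was −0.10 ± 0.27 (SE), and 0.17 without vehicle 1 and 0.02 without doxorubicin 4.

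**Figure D2:**
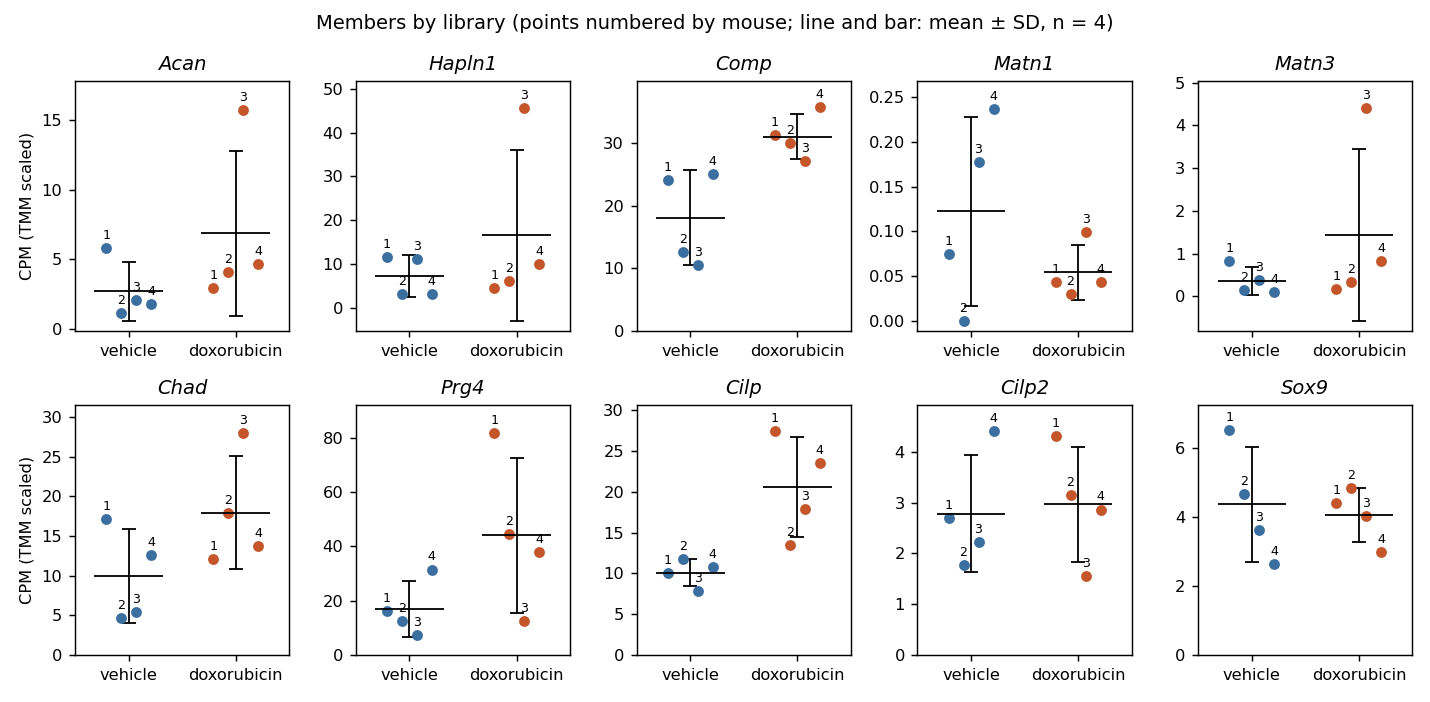
CPM of each of the 10 genes in each library, vehicle in blue and doxorubicin in orange, numbered by mouse, with a line at the mean and a bar of ± SD (n = 4). Doxorubicin 3 stands alone at the top for Acan (15.7 CPM), Hapln1 (45.5 CPM) and Matn3 (4.41 CPM), while only Comp and Cilp have groups that do not overlap. Of all tested genes, 1.64% had groups that did not overlap with doxorubicin higher and 1.95% with it lower.

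Across the 9 tested genes, 8 had a log2 difference above 0 and the median was 1.03, beside 57.2% above 0 and a median of 0.04 over all 17035 tested genes. In edgeR's quasi-likelihood test with Benjamini-Hochberg adjustment over all genes, 0 of the 9 passed 0.05 in either direction, where the share of all tested genes that passed was 0% in each direction. Before adjustment 3 of the 9 (Prg4, Comp and Cilp) had p under 0.05, against 5.36% of all genes. These 3 were higher in doxorubicin, as were 2.13% of all genes, and 0 were lower, as were 3.23%. Groups did not overlap, with doxorubicin higher, for 2 of the 9 (Comp and Cilp) and for 1.64% of all tested genes, and with doxorubicin lower for 0 of the 9 and 1.95%. Nothing is read from these counts, since the genes were picked with this comparison known. DESeq2 called 1 of the 9, Cilp, where it called 0.17% of all tested genes, and gave 5 an unadjusted p under 0.05, against 5.59% of all. The limma-voom fit called 0 of the 9 and 0% of all genes, and gave 3 an unadjusted p under 0.05, against 5.5% of all. Without doxorubicin 3 the median of the 9 was 0.50 and 7 were above 0.

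**Figure D3:**
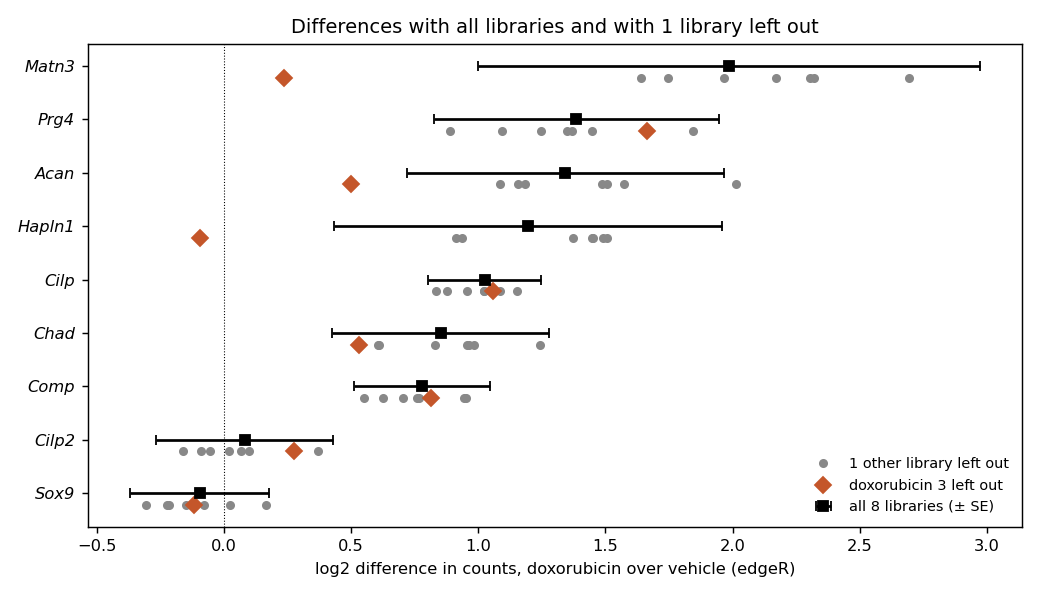
Log2 differences in counts, doxorubicin over vehicle, for the 9 tested genes: black squares with bars of ± SE from all 8 libraries, an orange diamond without doxorubicin 3, and grey points with each other library left out. Leaving out doxorubicin 3 brings Matn3 from 1.99 to 0.24, Acan from 1.34 to 0.50 and Hapln1 from 1.20 to −0.09, and leaves Cilp at 1.06 and Comp at 0.81.

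Other chondrocyte genes had the same high library as aggrecan. Of the 15 tested chondrocyte genes other than collagens, 9 were highest in doxorubicin 3, as were 5 of the 8 cartilage collagens, against 16.9% of all tested genes. Col10a1, the collagen of hypertrophic growth plate chondrocytes, was at 29.5 CPM there, 12.1 times the median of the other libraries. Epyc (epiphycan, a growth plate proteoglycan) stood 17.3 times, Cnmd (chondromodulin) 8.74 times, Col9a2 8.89 times and Ihh, the hedgehog ligand of prehypertrophic chondrocytes, 5.34 times above that median. Of these, Col10a1, Cnmd and Ihh were singled out with their values in view. Some rest on few counts: Epyc had 8, 1, 19 and 1 in vehicle 1 to 4 and 7, 20, 160 and 16 in doxorubicin 1 to 4. Col9a2 had 2 counts in vehicle 2, and Ihh 9 in vehicle 4 and 9 in doxorubicin 4. Neutrophil genes were often high in this library too: 6 of the 10 were highest in doxorubicin 3. The summed neutrophil list was at 22350 CPM there, near the 23585 CPM of vehicle 3. Of the 11 erythroid genes, 3 were highest in doxorubicin 3. Their sum of 30121 CPM there was below the 33262 CPM of vehicle 3 and the 35254 CPM of vehicle 4. With the mean level of the neutrophil and erythroid genes as a covariate in edgeR, the log2 differences were 1.24 for Acan, 0.97 for Hapln1, 1.72 for Matn3 and 0.87 for Chad, against 1.34, 1.20, 1.99 and 0.85 without it. The part of the other chondrocyte genes in these differences was not tested beyond leaving the library out.

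Of the cartilage collagens, 3 kept apart from that pattern. Col2a1, Col11a1 and Col11a2, singled out with their values in view, each had their 3 highest libraries in vehicle 1, doxorubicin 1 and doxorubicin 2, with Col2a1 at 151, 169 and 180 CPM in these and between 39.2 and 95.9 CPM in the other 5. The summed osteoblast genes were highest in the same 3 libraries, at 11596, 13034 and 16727 CPM, against 4499 to 7918 CPM in the others. In doxorubicin 3 Col2a1 was at 0.863 and Col11a2 at 0.596 times the median of the rest, where Acan was at 5.31 times.

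**Figure D4:**
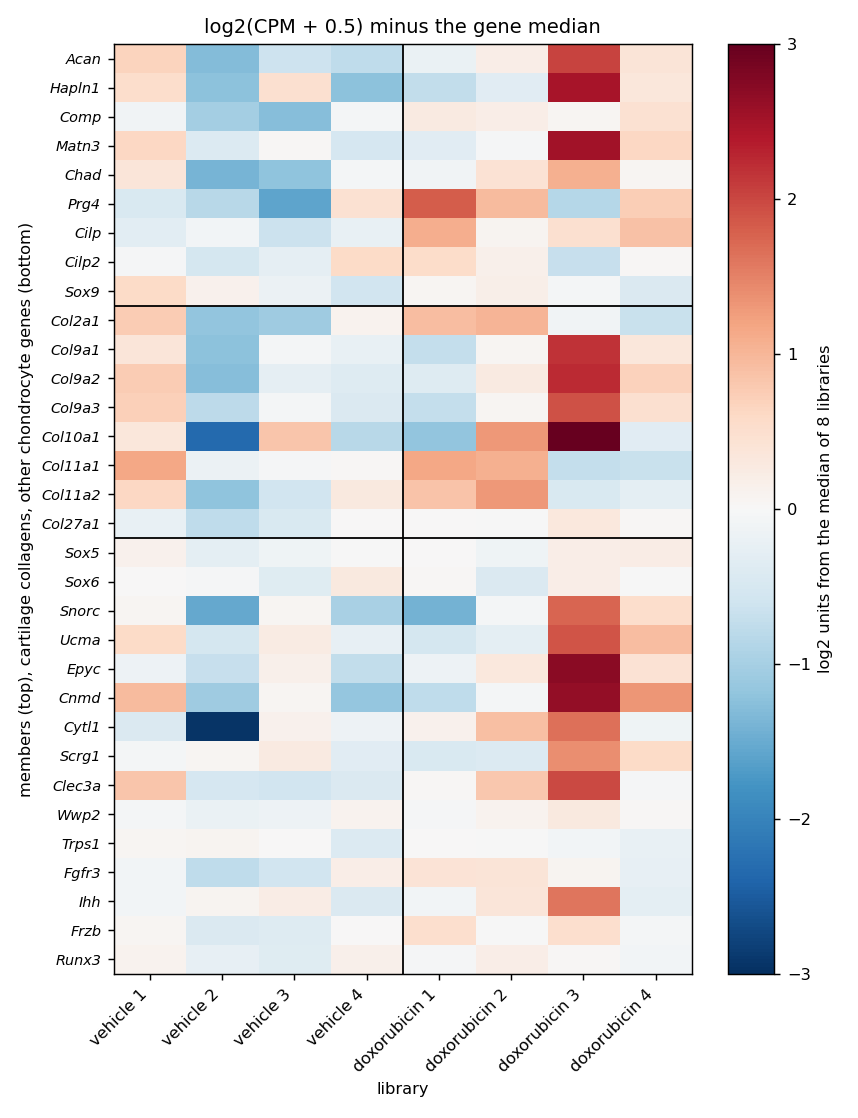
Each cell is log2(CPM + 0.5) of a gene in a library minus the median of that gene over the 8 libraries, for the 9 tested cartilage matrix genes (top), 8 cartilage collagens (middle) and 15 other chondrocyte genes (bottom). The doxorubicin 3 column is deep red for Acan, Hapln1, Matn3, Col10a1, Epyc and Cnmd, but not for Prg4, Sox9, Col2a1 or Col11a2; the colour scale ends at 3 on either side of 0.

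Genes that make, cut or accompany the same matrix, and markers of neighbouring tissue, were read from 15 lists, in which 0 of 155 tested genes passed an adjusted p of 0.05 in edgeR, while 12 had an unadjusted p under 0.05, against 5.36% of all tested genes. Of these 12, 9 were higher and 3 lower in doxorubicin, against 2.13% and 3.23% of all. Groups did not overlap for 4 of the 155 (Thbs1, Thbs3, Csgalnact1 and Adamts7). Over all tested genes this held for 1.64% with doxorubicin higher and 1.95% with it lower, so nothing is read from these 4. DESeq2 called 0 of the listed genes, with 29 called among all, and limma-voom 0, with 0 among all. With single libraries left out, the median log2 difference took either sign for the paralog, protease, hyaluronan, osteocyte and neutrophil lists. The cartilage collagens had 8 of 8 above 0 with a median log2 difference of 0.78, which was 0.38 without doxorubicin 3, and the other chondrocyte genes 13 of 15 with 0.56, which was 0.17 without it. Col27a1 had a log2 difference of 0.44 ± 0.17, Col9a2 of 1.57 ± 0.81 and Col9a1 of 1.26 ± 0.68 (SE), and without doxorubicin 3 these were 0.33, 0.50 and 0.16. Among the other chondrocyte genes Epyc had 2.87 ± 1.01, the cytokine-like Cytl1 1.36 ± 0.62 and the Wnt inhibitor Frzb 0.56 ± 0.26 (SE), which became 1.17, 0.88 and 0.42 without doxorubicin 3. The values of Epyc rest on 1 to 19 counts in each vehicle library.

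Paralogs of the 10 genes had a median log2 difference of 0.12, with 9 of 12 tested above 0. Thbs1, a thrombospondin of platelets and many other cells, averaged 444 ± 131 CPM with vehicle against 248 ± 60.7 CPM with doxorubicin, and Thbs3, a closer relative of Comp, 3.31 ± 0.713 against 5.12 ± 1.23 CPM (SD, n = 4 each). Both had groups that did not overlap, in opposite directions. Sox8, of the same subgroup as Sox9, averaged 0.238 ± 0.109 CPM with vehicle against 0.468 ± 0.137 CPM with doxorubicin (SD, n = 4 each). These means rest on few counts: 7, 3, 15 and 5 in vehicle 1 to 4 and 7, 14, 19 and 12 in doxorubicin 1 to 4. The groups of Sox8 overlapped. For Matn2, a matrilin found outside cartilage and singled out with its values in view, the log2 difference came to −0.07 ± 0.14 (SE).

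Genes for chondroitin sulfate, the chain that aggrecan carries, had 16 of 23 above 0 with a median log2 difference of 0.12. Csgalnact1, which starts the chain, averaged 14.5 ± 3.40 CPM with vehicle against 9.29 ± 1.07 CPM with doxorubicin (SD, n = 4 each), with groups that did not overlap. Xylt2, which attaches the first sugar, had a log2 difference of 0.39 ± 0.21 and the sulfotransferase Chst13 of 0.29 ± 0.18 (SE). Hyaluronan genes had 5 of 8 above 0 and a median of 0.10. The hyaluronan-degrading Cemip had a log2 difference of 0.58 ± 0.31, the synthase Has2 of −0.64 ± 0.39 and the hyaluronan-binding Tnfaip6 of −0.39 ± 0.37 (SE).

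Proteases and their inhibitors were split, with 7 of 14 above 0 and a median log2 difference of 0.02. Adamts7, which can cut COMP, averaged 1.25 ± 0.527 CPM with vehicle against 2.41 ± 0.454 CPM with doxorubicin (SD, n = 4 each), and its groups did not overlap. Mmp3 had a log2 difference of 0.87 ± 0.29 and the inhibitor Timp3 of −0.47 ± 0.19 (SE). For the aggrecanases Adamts4 and Adamts5, singled out with their values in view, the log2 differences were −0.0025 ± 0.29 and −0.04 ± 0.15 (SE).

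Tissue in or on the bone was read from its own lists. Tendon and ligament genes had a median log2 difference of 0.14, with Fmod at 0.22 ± 0.21, Tnmd at 0.22 ± 0.23 and Kera at 0.35 ± 0.39 (SE). Vehicle bones had a sum over this list of 548 to 690 CPM, against 563 to 742 CPM after doxorubicin. Tnc was its largest part, at 317 to 467 CPM with vehicle and 347 to 484 CPM after doxorubicin. Col12a1 came next, at 90.2 to 174 and 72.9 to 206 CPM. Scx, Tnmd, Mkx and Kera each lay between 1.78 and 11.6 CPM in all libraries, so the sum says little about them. The 3 joint lining genes had a median of 0.10, with Clic5 at 0.47 ± 0.38, Tspan15 at 0.10 ± 0.12 and Cd55 at −0.02 ± 0.12 (SE). Periosteal and fibroblast genes had a median of 0.34, with Dpt, a matrix protein of skin and tendon, at 0.72 ± 0.29, Prrx1 at 0.34 ± 0.16 and Mfap5 at 0.45 ± 0.27 (SE). Among the bone cells themselves, osteoblast genes had 7 of 8 above 0 with a median of 0.33 and osteocyte genes 4 of 6 with 0.09. With 1 library left out, the osteoblast median ran from 0.07 to 0.62. Of the osteocyte genes, Dmp1 was at −1.03 ± 0.48, Mepe at 0.33 ± 0.21 and Pdpn at 0.32 ± 0.24 (SE), all with overlapping groups. Marrow genes had medians of 0.03 (neutrophil, 6 of 10 above 0) and −0.36 (erythroid, 0 of 11), and the adipocyte genes of 0.69 (4 of 5), where Cidec, a lipid droplet protein, had a log2 difference of 1.27 ± 0.39 (SE). The adipocyte median was 0.18 without doxorubicin 2 and 1.23 without vehicle 1. Skeletal muscle genes were above 0 in 15 of 15 with a median of 0.40; leaving out vehicle 3 made this 0.04, and leaving out doxorubicin 1 made it 0.13.

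Vehicle 3, lowest for muscle, was also the lowest library for Prg4, Comp and Cilp, and doxorubicin 1, highest for muscle, was the highest for Prg4 and Cilp. With the mean muscle level as a covariate in edgeR, the log2 difference was 0.95 for Prg4, 0.62 for Comp and 0.84 for Cilp, and with the mean level of the neutrophil and erythroid genes it was 0.69, 0.71 and 0.94. The part of either tissue in these differences was not tested beyond these fits.

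Within groups, the highest correlations were among Acan, Hapln1 and Matn3 and between Prg4 and Cilp2, while Comp, Cilp and Sox9 had none above 0.7 in size with any of the other genes. With group means removed from log2 CPM, Hapln1 and Matn3 had the highest correlation of the 36 pairs over the 8 libraries (Pearson's r = 0.97, Spearman's rho = 0.98). Its exact permutation p, from 576 arrangements within groups, was 0.00174 for r, the smallest they can give, and 0.00347 for rho, and each became 0.0625 when adjusted over the pairs. Leaving out the 2 libraries farthest from the median of Hapln1, vehicle 1 and doxorubicin 3, gave r = 0.92. Acan followed Matn3 (r = 0.92, rho = 0.83) with exact permutation p of 0.00694 and 0.0260, adjusted to 0.0833 and 0.212, and r = 0.68 without the same libraries. Acan and Hapln1 had r = 0.89 and rho = 0.88, with exact permutation p of 0.00347 and 0.0208, adjusted to 0.0625 and 0.212, and r = 0.73 without them.

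Prg4 and Cilp2 came close to these (r = 0.92, rho = 0.95), with exact permutation p of 0.0122 and 0.00347, adjusted to 0.109 and 0.0625. Without vehicle 3 and doxorubicin 3 their r was 0.95. Prg4 and Hapln1 went opposite ways (r = −0.83, rho = −0.76), with exact permutation p of 0.0399 and 0.0556, adjusted to 0.205 and 0.304, and r = −0.83 without vehicle 1 and doxorubicin 3. Chad was tied to Acan (r = 0.80, rho = 0.67; exact permutation p of 0.0174 and 0.111, adjusted to 0.125 and 0.386), a relation that rests on vehicle 1 and doxorubicin 3, since r was 0.42 without them. In these exact permutation tests 0 of the 36 pairs passed an adjusted p of 0.05; with 36 pairs and 576 arrangements, a lone pair cannot pass.

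**Figure D5:**
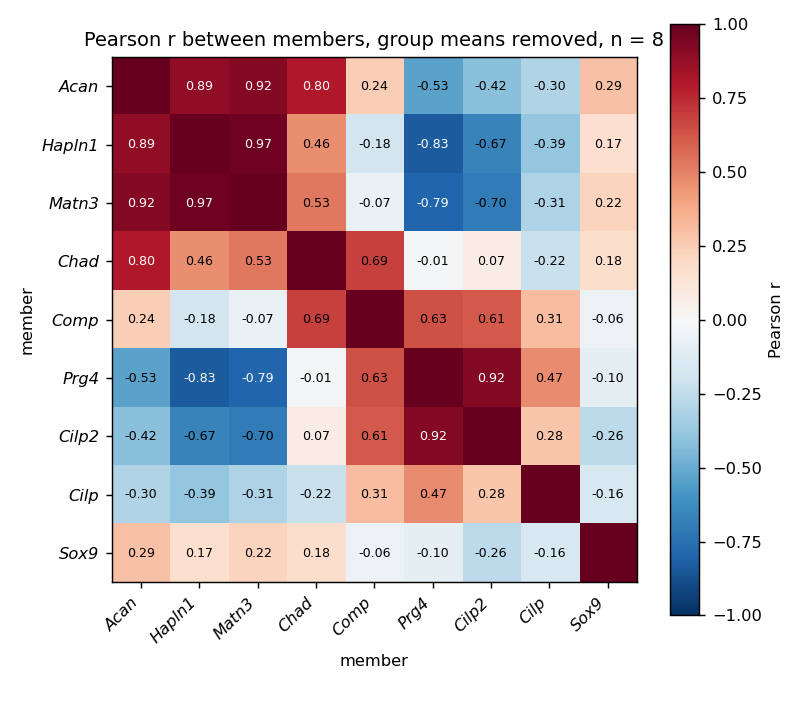
Pearson's r between the 9 tested genes over 8 libraries, after removing group means from log2 CPM; red is positive and blue negative, with the genes ordered by hand. Acan, Hapln1 and Matn3 form a red block (0.89 to 0.97), Prg4 and Cilp2 share 0.92, and Prg4 against Hapln1 is at −0.83.

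Against the tissue lists, 36 further relations were computed in the same way and 0 passed an adjusted p of 0.05 in the exact permutation tests. Acan against the mean of the cartilage collagens had the highest r, at 0.87, and rho = 0.81. Its exact permutation p were 0.0122 and 0.0451, adjusted to 0.167 and 0.375, and r was 0.79 without vehicle 1 and doxorubicin 3. Chad against the same mean had r = 0.85 and rho = 0.81, with exact permutation p of 0.00694 and 0.0278, adjusted to 0.167 and 0.375, and r = 0.65 without vehicle 1 and doxorubicin 3. Prg4 against the neutrophil genes had r = −0.81 and rho = −0.86, with exact permutation p of 0.0139 and 0.0174, adjusted to 0.167 and 0.375, and r = −0.52 without vehicle 3 and doxorubicin 3. Hapln1 and Matn3 against the neutrophil genes had r = 0.67 and 0.66, with exact permutation p of 0.108 and 0.153, adjusted to 0.388 and 0.423. Without vehicle 1 and doxorubicin 3 these r were 0.77 and 0.91. Acan and Chad were at r = 0.38 and −0.03 with the neutrophil genes. Hapln1 against the cartilage collagens had r = 0.70, with exact permutation p of 0.0451, adjusted to 0.304, and r = 0.37 without vehicle 1 and doxorubicin 3. Cilp against skeletal muscle had r = 0.75 and rho = 0.67, with exact permutation p of 0.0260 and 0.0538, adjusted to 0.234 and 0.375, and r = 0.93 without doxorubicin 1 and 2. Comp against skeletal muscle had r = 0.66 and rho = 0.33, with exact permutation p of 0.0590 and 0.503, adjusted to 0.304 and 0.833, and r = 0.27 without vehicle 3 and 4. For Prg4 against skeletal muscle r was 0.67 and rho 0.36, with exact permutation p of 0.123 and 0.377, adjusted to 0.403 and 0.753, and r was −0.01 without vehicle 3 and doxorubicin 3. Of these 3 relations with muscle, those of Comp and Prg4 thus rest on the libraries left out. Comp against the tendon and ligament genes was at r = 0.25 and rho = 0.31, with exact permutation p of 0.523 and 0.556, adjusted to 0.818 and 0.833, and r = 0.06 without vehicle 3 and 4. Cilp against the tendon and ligament genes had r = 0.73 and rho = 0.62. Its exact permutation p were 0.0851 and 0.141, adjusted to 0.340 and 0.506, and r was 0.43 without doxorubicin 1 and 2.

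The genes most like 4 of the 10 in their deviations from the group means were drawn from all tested genes of at least 1 CPM, with Pearson's r over 8 libraries as the measure and no test, since so many genes were searched. For Acan they were Hinfp, Zfp346, Col9a3, Serpina1b and Igkv17-121, with r from 0.97 to 0.94, and Col9a3 (r = 0.95) was the 1 gene of the cartilage lists among them. For Comp they were Afg3l2, Znrf1, Thop1, Fam53a and Cenpb, with r from 0.99 to 0.98. For Prg4 they were Creld1, Flywch1, Zfp691, Zfp358 and Camsap1, with r from 0.98 to 0.97. Sox9 was most like Nedd9 (r = 0.996), followed by Socs2, Btbd7, Gpr132 and Dnajb1 at 0.98 to 0.97.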

How the data were processed

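The authors deposited 1 table of estimated counts per gene for the 8 libraries. STAR 2.5.3a, RSEM 1.3.0 and the human build GRCh38 are listed, with no role, in the submitters' processing notes, whereas the gene identifiers are those of mouse. The annotation and any use of strand or molecular identifiers in counting were not stated. All values were whole numbers, so rounding had no effect. All 10 identifiers matched GENCODE M21 (GRCm38) with their version, and positions and exon lengths come from there.

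Genes were kept by filterByExpr (minimum count 10, total 15), scaled by TMM and tested with edgeR 4.0.16's robust quasi-likelihood test (R 4.3.3), two-sided, and p-values were adjusted by Benjamini-Hochberg over 17035 genes. The common biological coefficient of variation was 0.219. Log2 CPM used a pseudocount of 0.5. Alternatives were limma-voom (limma 3.58.1), DESeq2 1.42.0, other scalings, filters, covariates, a replicate block and each library left out. The edgeR step was tested on simulated data. Correlations used two-sided exact permutation within groups.

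The genes and lists were chosen with earlier results of these data known. By rule the text names all 10 genes, up to 3 genes per list with the smallest p, and the 5 genes most correlated with Acan, Comp, Prg4 and Sox9. Tmem2 in the hyaluronan list is an older symbol of Cemip2 in the RefSeq gene table, so that gene was counted once, as Cemip2.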

Additional observations from a re-analysis of the deposited data

Results flagged for a closer look

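Single libraries stood far from the other 3 of their group, by the gap to the nearest library as a share of the group's range (above 0.829), in 15 of 108 checks over 55 genes. A chance rate of about 1 in 20 such checks holds for normally distributed values, whereas CPM were used here without logs. The list genes were chosen for the smallest p of their lists, and genes that share a library are not independent. The count is therefore not weighed against that rate. No explanation was tested.

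Of the 15, 5 were cartilage genes in doxorubicin 3. Acan was at 15.7 CPM there against 2.96 to 4.69 CPM in the other doxorubicin bones, and Hapln1 at 45.5 CPM against 4.48 to 9.99 CPM. Matn3 was at 4.41 CPM against 0.174 to 0.825 CPM, Epyc at 5.27 CPM against 0.304 to 0.695 CPM, and Col27a1 at 33.2 CPM against 26.5 to 27.4 CPM. The erythroid gene Epb42 was also high in that library, at 121 CPM against 51.8 to 61.0 CPM, and the joint lining gene Tspan15 low, at 5.93 CPM against 6.76 to 6.92 CPM.

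Doxorubicin 1 was high for Thbs3, at 6.96 CPM against 4.45 to 4.54 CPM, for Dpt, at 20.01 CPM against 9.34 to 10.7 CPM, and for Mfap5, at 5.61 CPM against 2.79 to 3.13 CPM. In doxorubicin 2 Mmp3 was low, at 0.691 CPM against 1.13 to 1.19 CPM, and the adipocyte gene Cidec high, at 8.38 CPM against 2.83 to 3.74 CPM. Among vehicle bones, Mmp3 was high in vehicle 1, at 0.824 CPM against 0.457 to 0.506 CPM, and Tnmd in vehicle 2, at 9.94 CPM against 6.18 to 6.63 CPM. The muscle gene Actn3 was low in vehicle 3, at 153 CPM against 899 to 1029 CPM.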

How the results depend on the processing

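In edgeR, 0 of the 9 tested cartilage matrix genes and 0 of all tested genes passed an adjusted p of 0.05, and each count ran from 0 to 0 with single libraries left out. DESeq2 called 1 of the 9 (Cilp, adjusted p = 0.0279, where edgeR's was 0.703 and those of the 9 genes were 0.380 or more in the edgeR and limma-voom alternatives) and 29 of all genes, and testing without a filter on low counts called 1 gene, which was not among the 9. With group means kept, 3 of the 36 pairs of genes and 1 of the 36 relations with tissue lists passed, against 0 with them removed; the causes were not tested. With the 2 farthest libraries left out, no such count was made. Of the single values, 3 moved by more than 1 SD between libraries: the log2 difference of Matn3 was 0.24 without doxorubicin 3, and the medians of the adipocyte and chondroitin sulfate lists were 1.23 without vehicle 1 and 0.01 without vehicle 2. Same-numbered libraries of the groups had correlations of 0.294, −0.232, 0.400 and 0.0737 between their deviations. The highest correlations of vehicle 1 to 4 with another number were 0.0234, 0.225, 0.147 and 0.0354. A correlation of 0.1 was required of each pair, so the mice were not treated as paired. Whether libraries of 1 number share anything was not tested further. With the replicate block in edgeR 0 of the 9 genes passed, and 1466 of all genes had an unadjusted p under 0.05, against 913. With 4 mice a group and 22 counts of Matn1 in all, small differences could not be resolved.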
